A study of Mus musculus with 10 samples.

Results

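The 9 genes described here encode proteins with which the intestinal surface meets bacteria: Reg3b, Reg3g, Retnlb, Ang4, Saa1, Saa2, Lypd8, Lcn2 and Pigr. They were listed by name as epithelial defence genes, 9 of the 33632 gene IDs of the count table, and were chosen by earlier results of this same comparison, that is by their fold changes and calls between SOX21CKO and SOX21flox. These fold changes and calls are therefore a description and carry no test here. RNA was sequenced from mouse colon crypts, the glands that line the colon, in 2 groups of 5 libraries. SOX21CKO crypts carried Lgr5-EGFP-IRES-CreERT2/+;Sox21fl/fl, and SOX21flox crypts carried Sox21fl/fl alone, so that both groups have loxP-flanked alleles of Sox21, a gene for a transcription factor of the Sox family. All mice were on a normal diet and had a normal liver. Cre is made from the Lgr5 locus, which is active in stem cells at the crypt base, and works only after tamoxifen. The knock-in is present in SOX21CKO only, so that Cre, the fluorescent protein and the altered Lgr5 allele cannot be told apart from any deletion of Sox21. Age, sex, the tamoxifen schedule and whether SOX21flox mice received tamoxifen are not given in the labels. They also do not say whether each library came from a separate animal, so the spread between libraries may be technical.

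The colon keeps bacteria away from its surface by a mucus layer that goblet cells secrete, by proteins that kill or immobilize bacteria, and by IgA carried across the epithelium. Several of these genes are induced by microbes: Toll-like receptor signals through Myd88 and the cytokine IL-22 through Stat3 raise the Reg3 lectins, and type 2 cytokines raise Retnlb. Serum amyloid A proteins belong to the acute phase response of the liver and are also made by intestinal epithelium.

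Total counts were 18926634 to 23642415 per SOX21CKO library and 21414122 to 23407565 per SOX21flox library. Sox21 itself was at 7.79, 6.73, 3.39, 3.51 and 5.27 CPM in SOX21CKO 1 to 5, against 1.98, 6.53, 4.06, 2.72 and 4.93 CPM in SOX21flox 1 to 5, a log2 fold change of 0.38, or 0.05 without SOX21flox 1 and 4 (CPM, reads per library size after trimmed mean of M values scaling). The targeted transcript was thus not lower in the libraries labelled SOX21CKO, and which stretch of it is deleted is not stated in the labels, so SOX21CKO and SOX21flox name the libraries by their labels throughout. Mitochondrial genes took 4.3 to 11.8% of counts in SOX21CKO and 4.88 to 29.3% in SOX21flox, where SOX21flox 1 had 26.5% and SOX21flox 4 had 29.3%. Many values move when these 2 SOX21flox libraries are left out. For genes given with group means or a log2 fold change, the value without them is added in 2 cases. These are a log2 fold change that then moved by over 1.5 times or turned its sign, and a DESeq2 call that changed. Genes only named, or given by reads or by single libraries, have no such value, which does not mean that they stayed the same. Epithelial markers were abundant in both groups, at 11014 to 19096 CPM in SOX21CKO and 15130 to 22666 CPM in SOX21flox summed over 6 genes, of which 2 were higher and 4 lower in SOX21CKO. Among them, Epcam was at 1028 ± 77 CPM in SOX21CKO and 871 ± 231 CPM in SOX21flox (1033 ± 66.5 CPM without SOX21flox 1 and 4), and Krt8 at 7907 ± 2113 CPM in SOX21CKO and 10855 ± 2188 CPM in SOX21flox, or 9409 ± 1302 CPM without those 2 (mean ± SD, n = 5 each unless stated, as for all later means).

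Of the 9 genes, 7 were lower and 2 higher in SOX21CKO, and none passed edgeR's quasi-likelihood test at a Benjamini-Hochberg adjusted p of 0.05, which called 0.00% of the 14963 genes tested. At an unadjusted p under 0.05 the count was 5 lower and 1 higher, where all tested genes gave 7.91% lower and 5.05% higher. DESeq2 called Reg3b and Retnlb lower and Saa2 higher, 3 of the 9, where it called 1.14% of all genes, 0.742% lower and 0.394% higher. Without SOX21flox 1 and 4, DESeq2 called Saa1 and Saa2 higher and no longer called Reg3b (adjusted p = 0.308) or Retnlb (adjusted p = 0.208), and it called 0.463% of all genes. Limma voom called no gene, and limma voom with quality weights called 44 genes, none of them among the 9. All 5 SOX21CKO libraries lay below all 5 SOX21flox libraries for Reg3b, Reg3g and Retnlb, while 1.26% of all tested genes had groups that did not overlap in this direction. No member had SOX21CKO libraries that all lay above the SOX21flox libraries, a pattern of 0.922% of tested genes. All of these measures come from the contrast by which the genes were chosen.

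**Figure D1:**
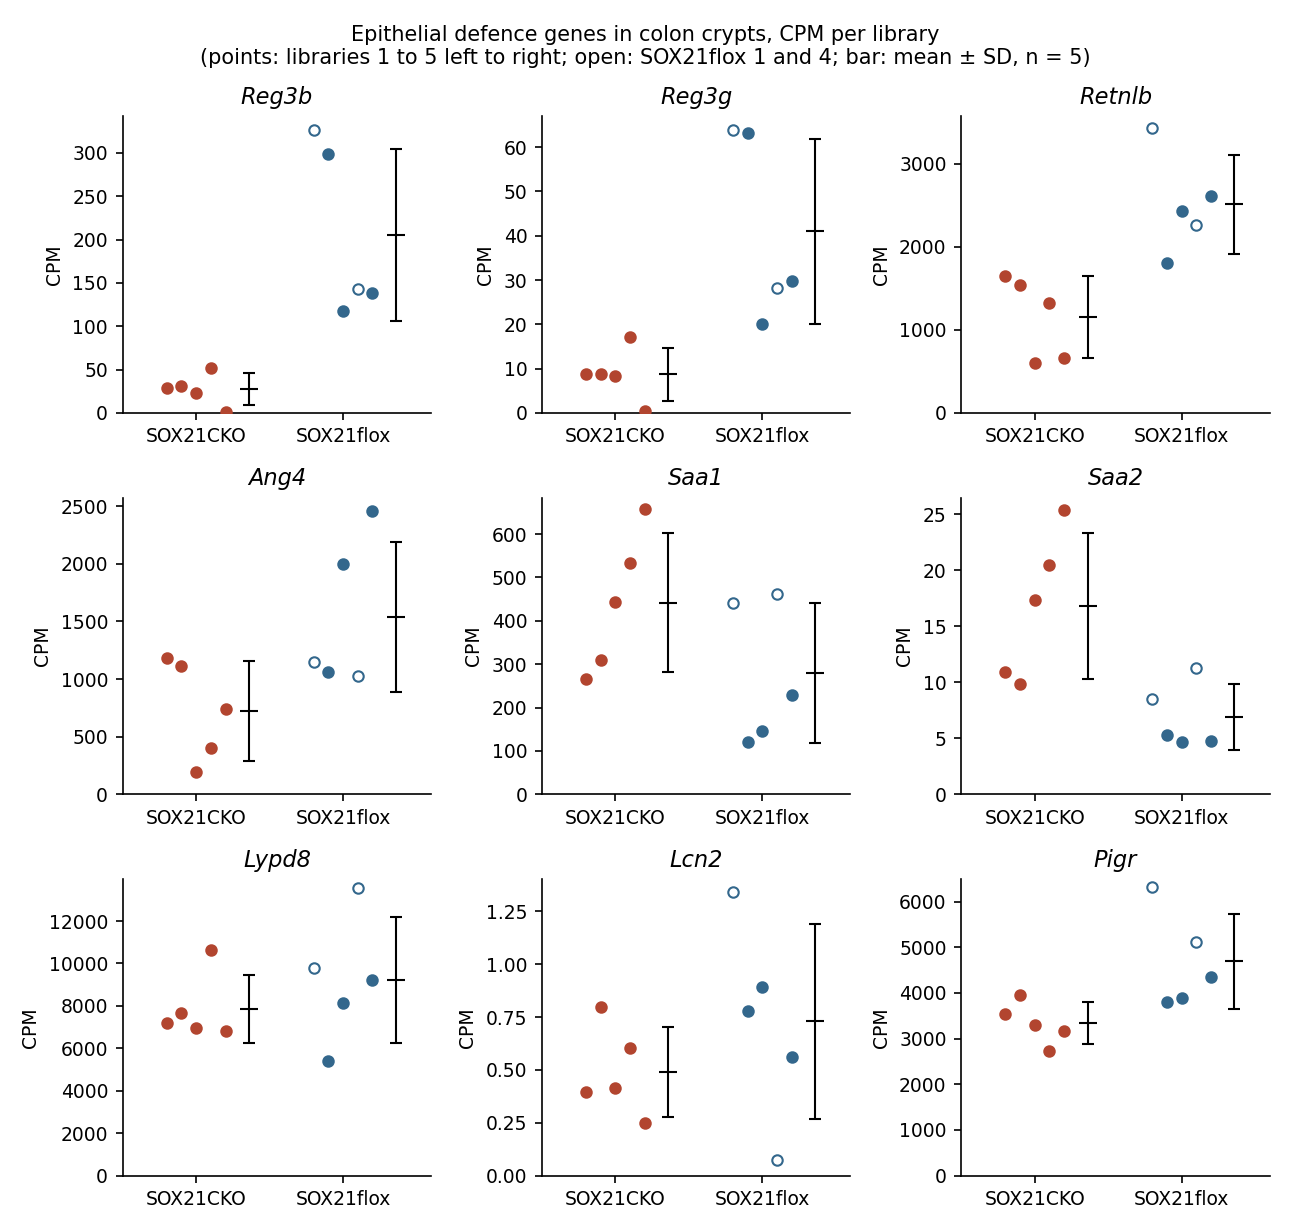
CPM of the 9 genes by library, SOX21CKO at the left and SOX21flox at the right of each panel, with 1 point per library in the order 1 to 5, open points for SOX21flox 1 and 4, and a bar for the mean ± SD (n = 5). For Reg3b, Reg3g and Retnlb the 5 SOX21CKO points lie below the 5 SOX21flox points, with SOX21CKO 5 at 0.708 CPM for Reg3b, and for Saa2 3 SOX21CKO points lie above all SOX21flox points.

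Reg3b and Reg3g encode secreted C-type lectins. The Reg3g protein binds the peptidoglycan of Gram-positive bacteria and kills them. The 2 genes lie on chromosome 6, and the 250 bases upstream of each start are shown because the levels of the 2 genes moved together across libraries. Sequences are from RefSeq in build GRCm38.p6, at chr6:78370635-78370884 on the plus strand for Reg3b and at chr6:78468875-78469124 on the minus strand for Reg3g, and capitals mark matches to the motifs searched.
Reg3b: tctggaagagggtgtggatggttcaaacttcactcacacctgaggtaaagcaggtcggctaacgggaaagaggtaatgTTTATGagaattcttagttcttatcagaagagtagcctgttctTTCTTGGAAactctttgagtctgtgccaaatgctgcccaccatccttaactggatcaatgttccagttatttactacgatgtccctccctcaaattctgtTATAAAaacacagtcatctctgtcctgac
Reg3g: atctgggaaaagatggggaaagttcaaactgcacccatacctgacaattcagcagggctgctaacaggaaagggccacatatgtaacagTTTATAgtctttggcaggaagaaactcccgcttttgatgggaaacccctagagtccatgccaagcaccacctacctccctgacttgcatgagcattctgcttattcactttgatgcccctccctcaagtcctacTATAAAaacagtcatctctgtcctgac
Both strands were searched for a STAT motif (TTCNNNGAA), a C/EBP motif (TTGCNNAA), an NF-kB motif (GGG, any 3 bases, then TTCC), a CDX motif (TTTATG) and the TATA box (TATAAA), and the first base of the gene is taken as position 1. Reg3b had a STAT match at -129 to -121, a CDX match at -172 to -167 and a TATA box at -29 to -24. Reg3g had a TATA box at -27 to -22 and another at -161 to -156 on the opposite strand, with no match to the other motifs in this window. Over 32851 promoters of this length the STAT motif was found in 7.02%, CDX in 10.8% and the TATA box in 12.4%. The 2 upstream stretches were identical at 68.4% of 253 aligned columns. A match is a run of letters and does not show binding.

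Reg3b (ENSMUSG00000071356) had 29.2, 31.4, 23.1, 52.3 and 0.708 CPM in SOX21CKO 1 to 5, against 326, 299, 118, 143 and 138 CPM in SOX21flox 1 to 5. SOX21CKO 5 stood far below the others of its group, with 20 reads, and even the highest SOX21CKO library was below the lowest SOX21flox library. The mean was 27.3 ± 18.5 CPM in SOX21CKO and 205 ± 99.2 CPM in SOX21flox, a log2 fold change of -2.91 ± 0.72 (SE) and a ratio of 0.133 with a 95% interval of 0.0445 to 0.398. Without SOX21CKO 5 the log2 fold change was -2.59. The colonocyte genes Car1 and Krt20 were lowest of their group in this library as well, at 481 and 383 CPM, while the colonocyte genes Slc26a3 and Slc37a2 were the highest of their group there, at 377 and 114 CPM. Their part in the Reg3b value was not tested.

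Reg3g (ENSMUSG00000030017) had 8.84, 8.83, 8.27, 17.2 and 0.425 CPM in SOX21CKO 1 to 5, against 63.8, 63.2, 20, 28.3 and 29.7 CPM in SOX21flox 1 to 5. The libraries had nearly the order seen for Reg3b: SOX21CKO 5 was lowest with 12 reads, SOX21CKO 4 was highest in its group, and SOX21flox 1 and 2 were the highest of all. The log2 fold change was -2.24 ± 0.63 (SE), or a ratio of 0.211 with a 95% interval of 0.0809 to 0.551. Without SOX21CKO 5 it was -1.93.

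The balance between the 2 lectins is built from the same counts. Its difference between the groups restates the difference between their 2 fold changes, by which the genes were chosen, and carries no test. Within a library, Reg3b had 3.31, 3.55, 2.79, 3.05 and 1.67 counts per count of Reg3g in SOX21CKO 1 to 5, against 5.11, 4.73, 5.92, 5.06 and 4.65 in SOX21flox 1 to 5. The ratio was 2.87 ± 0.731 in SOX21CKO and 5.09 ± 0.503 in SOX21flox, and the groups did not overlap, with or without SOX21CKO 5, whose ratio comes from 20 and 12 reads. How often the ratio of other gene pairs keeps the groups apart was not examined. A ratio within a library does not depend on how libraries are scaled. No window of 50 bases in either transcript occurred in a transcript of another gene, and the coding sequences were identical at 76% of 525 aligned columns, with a longest identical run of 35 bases. In bulk crypts, fewer cells that make a transcript and less of it per cell cannot be told apart, here and for every gene below.

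Retnlb and Ang4 are both made by goblet cells. The Retnlb protein, also called RELM-beta, is a cysteine-rich secreted protein that kills Gram-negative bacteria, and Ang4 is a secreted ribonuclease of the angiogenin family with microbicidal activity. Retnlb (ENSMUSG00000022650) had 1651, 1538, 602, 1325 and 663 CPM in SOX21CKO 1 to 5, against 3429, 1810, 2436, 2256 and 2612 CPM in SOX21flox 1 to 5. The groups did not overlap, but SOX21CKO 1 and SOX21flox 2 came close, and SOX21CKO 3 and 5 were the lowest. The mean was 1156 ± 492 CPM in SOX21CKO and 2508 ± 595 CPM in SOX21flox, a log2 fold change of -1.12 ± 0.32 (SE), or a ratio of 0.461 with a 95% interval of 0.285 to 0.744. On the log2(FPKM + 1) scale the change was -0.72, where FPKM are the authors' values per gene length and library total. The median of all tested genes on that scale was 0.30.

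Ang4 (ENSMUSG00000060615) had 1181, 1116, 190, 399 and 742 CPM in SOX21CKO 1 to 5, against 1147, 1064, 2002, 1026 and 2461 CPM in SOX21flox 1 to 5. The groups overlapped, since SOX21CKO 1 and 2 were level with SOX21flox 1, 2 and 4, and the other 3 SOX21CKO libraries were below every SOX21flox library. The log2 fold change was -1.09 ± 0.46 (SE), a ratio of 0.471 with a 95% interval of 0.234 to 0.947, and it was -1.70 with limma voom and quality weights. Among its upstream 250 bases, a STAT match stood at -192 to -184, a motif found in 7.02% of all promoters of this length.

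All 8 of 8 goblet markers tested were lower in SOX21CKO, with a median log2 fold change of -0.72 against 0.00 over all tested genes, and their summed level was 13611 to 24432 CPM in SOX21CKO and 25102 to 39979 CPM in SOX21flox. EdgeR's test called none of them, and DESeq2 called Muc2. Without SOX21flox 1 and 4 all 8 were still lower, with a median of -0.57. Muc2, the mucin that forms the colonic mucus gel, averaged 8591 ± 2060 CPM in SOX21CKO and 14237 ± 3135 CPM in SOX21flox. Within the groups, the level of Muc2 had an r of 0.34 with Retnlb, 0.07 with Ang4, and 0.72 with each of Reg3b and Reg3g over the 10 libraries. Without SOX21CKO 5 the values were 0.02 for Retnlb, 0.22 for Ang4, 0.39 for Reg3b and 0.37 for Reg3g. Leaving out SOX21flox 1 and 4 instead gave 0.57 for Retnlb, -0.1 for Ang4, 0.9 for Reg3b and 0.92 for Reg3g. Counted per 100 Muc2 counts, Retnlb was at 17.3, 16.9, 7.94, 11.9 and 11.7 in SOX21CKO 1 to 5, against 30.2, 9.38, 17.3, 18.9 and 18 in SOX21flox 1 to 5. These groups overlapped, as SOX21flox 2 and 3 lay inside the SOX21CKO range. Ang4 per 100 Muc2 counts was 8.78 ± 5.25 in SOX21CKO and 11.1 ± 4.55 in SOX21flox, with wide overlap. The part of goblet cell number in the levels of these genes was not tested. Retnlb per Ang4 ranged from 0.894 to 3.32 in SOX21CKO and from 1.06 to 2.99 in SOX21flox, so the 2 genes did not keep a fixed proportion.

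**Figure D2:**
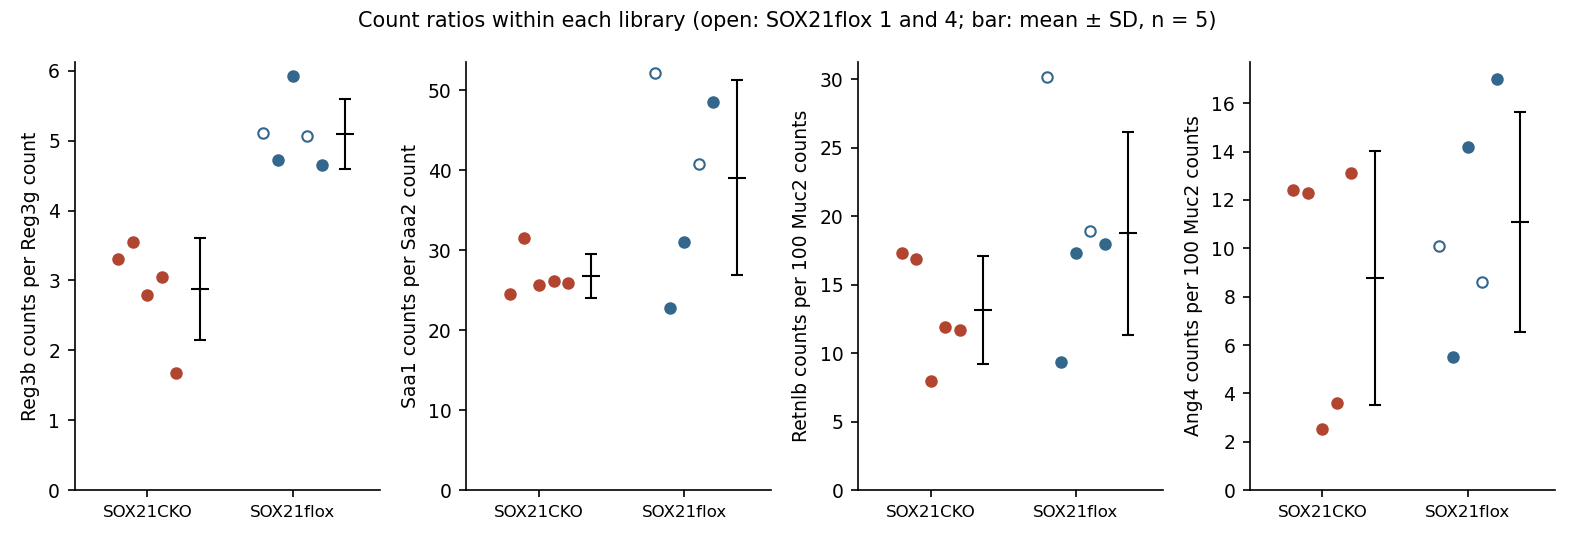
Ratios of counts within a library, which do not depend on library scaling, with SOX21CKO at the left and SOX21flox at the right of each panel, 1 point per library, open points for SOX21flox 1 and 4, and a bar for the mean ± SD (n = 5). Reg3b per Reg3g is 1.67 to 3.55 in SOX21CKO and 4.65 to 5.92 in SOX21flox without overlap, and the groups overlap in the other panels.

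Saa1 and Saa2 are the serum amyloid A genes that respond in the acute phase, and their proteins bind lipids and retinol. They lie head to head on chromosome 7. The coding sequences are shown because they set how far a read can be assigned to 1 of the 2 genes. Each is 366 bases long in GENCODE M21, bases 67 to 366 are given, and capitals mark the 18 positions at which the genes differ, all within this stretch.
Saa1 coding: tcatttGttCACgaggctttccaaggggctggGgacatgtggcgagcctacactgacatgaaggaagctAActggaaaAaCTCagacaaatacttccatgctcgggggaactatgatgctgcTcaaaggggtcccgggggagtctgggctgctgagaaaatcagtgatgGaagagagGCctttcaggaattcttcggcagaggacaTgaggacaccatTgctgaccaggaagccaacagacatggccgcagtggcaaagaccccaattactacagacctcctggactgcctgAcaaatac
Saa2 coding: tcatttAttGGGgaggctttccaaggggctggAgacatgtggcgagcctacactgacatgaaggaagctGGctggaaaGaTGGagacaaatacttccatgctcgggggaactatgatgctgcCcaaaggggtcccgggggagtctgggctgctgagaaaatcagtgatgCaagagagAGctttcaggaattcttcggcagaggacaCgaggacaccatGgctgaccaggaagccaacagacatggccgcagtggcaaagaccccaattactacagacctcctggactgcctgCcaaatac
The coding sequences were identical at 95.1% of positions, with a longest identical run of 73 bases. Over the whole transcript, 14.8% of the 50-base windows of Saa1 and 13.3% of those of Saa2 occurred in a transcript of another gene, mainly each other's, and no window of 100 bases did. The read length and the counting of ambiguous reads are not stated in the labels, so the split between Saa1 and Saa2 is uncertain. Saa1 had 22.8 to 52.1 counts per Saa2 count over the libraries. A small share of Saa1 reads assigned to Saa2 could therefore make up much of the Saa2 count, and that share was not measured.

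The upstream 250 bases of the pair are nearly the same sequence as well, and are shown beside the shared pattern across libraries described below. They lie at chr7:46742981-46743230 on the minus strand for Saa1 and at chr7:46751583-46751832 on the plus strand for Saa2 (RefSeq, GRCm38.p6), with motif matches in capitals.
Saa1 upstream: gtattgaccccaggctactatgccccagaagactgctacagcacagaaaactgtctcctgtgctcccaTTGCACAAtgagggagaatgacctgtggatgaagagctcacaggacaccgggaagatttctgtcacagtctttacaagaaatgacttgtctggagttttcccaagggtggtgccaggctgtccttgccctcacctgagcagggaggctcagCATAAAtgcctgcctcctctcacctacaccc
Saa2 upstream: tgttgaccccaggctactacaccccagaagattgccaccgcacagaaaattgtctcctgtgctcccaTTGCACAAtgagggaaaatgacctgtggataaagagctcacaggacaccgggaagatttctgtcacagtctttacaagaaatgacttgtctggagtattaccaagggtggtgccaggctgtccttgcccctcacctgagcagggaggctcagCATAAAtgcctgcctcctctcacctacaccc
These stretches were identical at 94.8% of 251 aligned columns. Each held a C/EBP match, at -182 to -175 in Saa1 and at -183 to -176 in Saa2, and each held a CDX match on the opposite strand at -31 to -26. On the gene's own strand this CDX match reads CATAAA, which differs from the TATA box motif TATAAA only in its first base. Neither window had an exact TATA box match. The C/EBP motif was found in 9.56% of all promoters of this length. No NF-kB match lay in either window, and 4.65% of all promoters had one. Upstream of Lcn2, a C/EBP match lay at -216 to -209 and a CDX match on the opposite strand at -60 to -55. Lypd8 and Pigr had no match to any of the motifs searched.

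Saa2 (ENSMUSG00000057465) had 10.9, 9.85, 17.3, 20.5 and 25.4 CPM in SOX21CKO 1 to 5, against 8.46, 5.29, 4.68, 11.3 and 4.71 CPM in SOX21flox 1 to 5. SOX21CKO 3, 4 and 5 were above every SOX21flox library, and SOX21flox 4 lay among the lower SOX21CKO libraries. The mean was 16.8 ± 6.53 CPM in SOX21CKO and 6.9 ± 2.93 CPM in SOX21flox, a log2 fold change of 1.30 ± 0.33 (SE), or a ratio of 2.46 with a 95% interval of 1.5 to 4.02.

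Saa1 (ENSMUSG00000074115), the far more abundant of the 2, had 266, 310, 443, 534 and 657 CPM in SOX21CKO 1 to 5, against 441, 121, 145, 463 and 229 CPM in SOX21flox 1 to 5. The groups overlapped because SOX21flox 1 and 4, the libraries with the high mitochondrial share, were level with SOX21CKO 3. The log2 fold change was 0.66 ± 0.40 (SE), a ratio of 1.58 with a 95% interval of 0.868 to 2.88. Without SOX21flox 1 and 4 it was 1.43 for Saa1 and 1.79 for Saa2, and the groups then did not overlap for either gene, as for 2.04% of all tested genes in this direction. The 3 SOX21flox libraries left averaged 165 ± 56.7 CPM for Saa1 and 4.89 ± 0.343 CPM for Saa2 (SD, n = 3). In the authors' FPKM, Saa1 was at 1024 to 2680 in SOX21CKO and 460 to 891 in SOX21flox. That scale moves genes in general toward SOX21CKO. On log2(FPKM + 1) the change was 1.31 for Saa1, where the median of all tested genes was 0.30.

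Saa1 per Saa2 was 24.5 to 31.5 in SOX21CKO and 22.8 to 52.1 in SOX21flox, so the proportion varied less within SOX21CKO, at 26.7 ± 2.74, than within SOX21flox, at 39 ± 12.2. Hepatocytes are the main source of serum amyloid A in the body. Genes listed as hepatocyte markers were read at low levels, which does not show that hepatocyte RNA was present. Summed over Alb, Apoa2 and Ttr, the 3 matched of 6 such markers, they came to 8.31 to 45.6 CPM in SOX21CKO and 5.84 to 9.81 CPM in SOX21flox. Nearly all of this was Ttr, the transthyretin gene, at 20.7 ± 16.0 CPM in SOX21CKO and 6.69 ± 1.56 CPM in SOX21flox, which DESeq2 called with all libraries and did not call without SOX21flox 1 and 4. Alb, the albumin gene, averaged 1.09 ± 0.534 CPM in SOX21CKO and 0.356 ± 0.216 CPM in SOX21flox. Apoa2, an apolipoprotein gene, went the other way, at 0.347 ± 0.198 CPM in SOX21CKO and 0.721 ± 0.474 CPM in SOX21flox (0.400 ± 0.117 CPM without SOX21flox 1 and 4). Their part in the Saa levels was not tested. Macrophages also make serum amyloid A, above all Saa3, which is one of the close relatives given further on.

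Lypd8, Pigr and Lcn2 complete the set. Lypd8 encodes a glycosylated surface protein of colonocytes that is shed into mucus and binds the flagella of Gram-negative bacteria, and it had the highest level of the 9. Lypd8 (ENSMUSG00000013643) had 7188, 7676, 6966, 10628 and 6805 CPM in SOX21CKO 1 to 5, against 9764, 5388, 8156, 13568 and 9220 CPM in SOX21flox 1 to 5. The groups overlapped widely, and SOX21CKO 4 and SOX21flox 4 were the highest of their groups. The log2 fold change was -0.23 ± 0.28 (SE) with a 95% interval of -0.85 to 0.39, and its sign turned, to 0.06 without SOX21flox 1 and 4, 0.12 with the mitochondrial share in the model, 0.21 with library totals only and 0.26 on the log2(FPKM + 1) scale. Library totals only shifted the median of all genes by 0.36. Of 6 colonocyte markers 5 were higher in SOX21CKO, with a median log2 fold change of 0.41, and their sum, most of it Car1, was 2515 to 9023 CPM in SOX21CKO and 5169 to 8023 CPM in SOX21flox. Car1 itself was lower, at 3623 ± 2311 CPM in SOX21CKO and 4947 ± 863 CPM in SOX21flox.

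Pigr encodes the polymeric immunoglobulin receptor, which carries IgA from the tissue through the epithelial cell to the lumen. Pigr (ENSMUSG00000026417) had 3549, 3958, 3295, 2718 and 3161 CPM in SOX21CKO 1 to 5, against 6312, 3800, 3884, 5115 and 4339 CPM in SOX21flox 1 to 5. SOX21CKO 2 lay within the SOX21flox range and the other 4 lay below it. The log2 fold change was -0.49 ± 0.22 (SE), a ratio of 0.711 with a 95% interval of 0.509 to 0.994. It was -0.26 without SOX21flox 1 and 4. With library totals only it was -0.04, where the median of all tested genes was 0.36. In the authors' FPKM the means were 1103 ± 214 in SOX21CKO and 1131 ± 186 in SOX21flox.

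Of the genes that act with Pigr in IgA transport, 6 of 7 tested were lower in SOX21CKO and none was called by edgeR or DESeq2. Their median log2 fold change was -0.24. With SOX21flox 1 and 4 left out, 3 were higher and 4 lower. Igha, the heavy chain of IgA, averaged 2.33 ± 1.02 CPM in SOX21CKO and 5.27 ± 3.47 CPM in SOX21flox, or 3.06 ± 1.73 CPM in SOX21flox 2, 3 and 5. Ccl28, a chemokine that draws IgA-producing plasma cells, was the exception with 66.9 ± 17.6 CPM in SOX21CKO and 51.8 ± 17.0 CPM in SOX21flox (61.9 ± 12.7 CPM without SOX21flox 1 and 4). Plasma cell markers summed to 2.82 to 5.74 CPM in SOX21CKO and 3.44 to 17.8 CPM in SOX21flox, so plasma cell RNA was scarce in both.

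Lcn2 encodes lipocalin 2, which binds the siderophores that bacteria use to take up iron, and is abundant in neutrophils and in inflamed epithelium. Lcn2 (ENSMUSG00000026822) had 9, 22, 12, 11 and 7 reads in SOX21CKO 1 to 5, against 17, 22, 20, 1 and 13 reads in SOX21flox 1 to 5. With 134 reads in all, the 0.491 ± 0.212 CPM in SOX21CKO and 0.731 ± 0.465 CPM in SOX21flox could not be told apart at this depth, and the log2 fold change was -0.57 with a 95% interval of -1.73 to 0.58. It was 0.10 on the log2(FPKM + 0.1) scale. The 7 matched neutrophil markers summed to 17.4 to 60.9 CPM in SOX21CKO and 10.2 to 82.2 CPM in SOX21flox. Over the 10 libraries there were 102 reads of S100a9, 81 of Ltf, 38 of Csf3r, 32 of S100a8, 12 of Cxcr2 and 10 of Retnlg. Ly6g, the most abundant marker of that list, was at 29.8 ± 17.1 CPM in SOX21CKO and 36.5 ± 29.7 CPM in SOX21flox (16.6 ± 7.59 CPM without SOX21flox 1 and 4). It made up most of the sum, which therefore does not show how much neutrophil RNA was present.

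**Figure D3:**
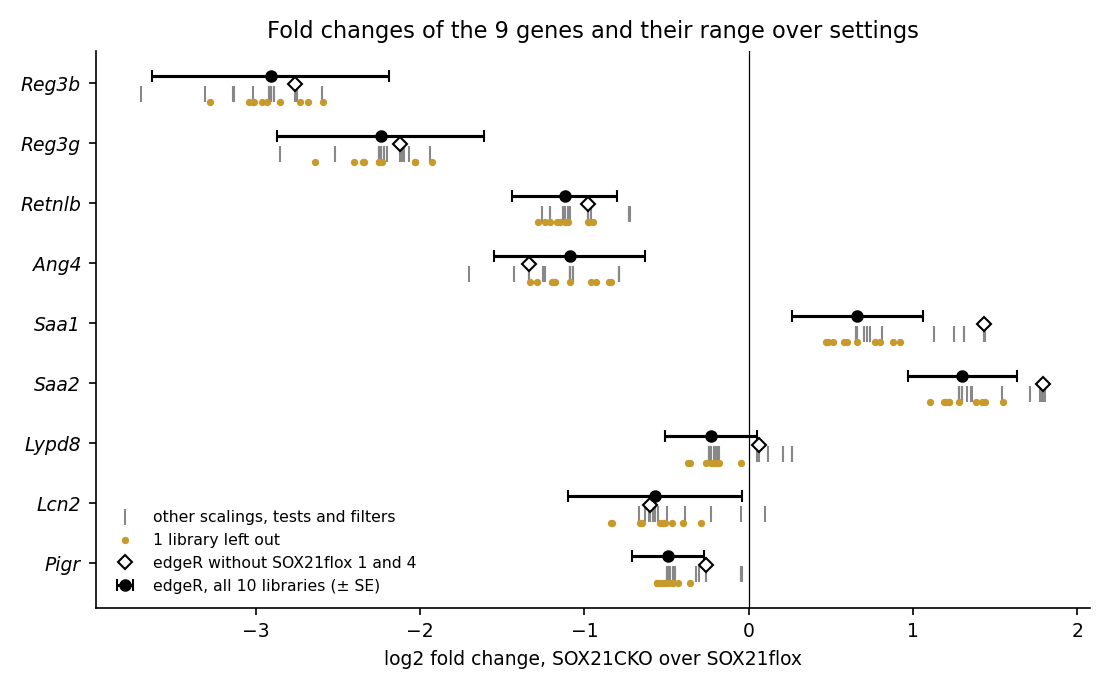
Log2 fold change of each member, SOX21CKO over SOX21flox, from edgeR over 10 libraries with its SE (black), without SOX21flox 1 and 4 (diamond), with 1 library left out (dots) and under other scalings, tests and filters (ticks). Reg3b at -2.91 and Reg3g at -2.24 are the lowest, Saa2 at 1.30 is the highest, and the Saa1 value is 0.66 with all libraries and 1.43 without the 2.

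Levels can be compared between genes only per length. In the authors' FPKM the SOX21CKO order was Lypd8 at 11438 ± 980, Retnlb at 3440 ± 1398, Ang4 at 2132 ± 1305, Saa1 at 1707 ± 650, Pigr at 1103 ± 214, Reg3b at 65.4 ± 39.6, Saa2 at 57.3 ± 23.4, Reg3g at 21 ± 12.6 and Lcn2 at 0.932 ± 0.386. Only Lypd8 and Retnlb, and Pigr and Reg3b, were neighbours whose libraries did not overlap in SOX21CKO. The SOX21flox order was Lypd8 at 9674 ± 2046, Retnlb at 5445 ± 1338, Ang4 at 3527 ± 2097, Pigr at 1131 ± 186, Saa1 at 673 ± 192, Reg3b at 382 ± 239, Reg3g at 77 ± 52.4, Saa2 at 15.9 ± 2.98 and Lcn2 at 1.06 ± 0.6. There Retnlb overlapped Ang4, and Saa1 overlapped Pigr and Reg3b, while the other neighbours did not overlap. By these means Saa1 ranked above Pigr and Saa2 above Reg3g in SOX21CKO, and below them in SOX21flox, and of these comparisons only Saa2 with Reg3g in SOX21flox was free of overlap.

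The 9 genes did not vary as 1 block. After the group mean was taken from the log2 CPM of each gene, Reg3b and Reg3g had a Pearson r of 0.99 over the 10 libraries, and 0.98 without SOX21CKO 5. Saa1 and Saa2 had an r of 0.88, and 0.78 without SOX21flox 1 and 4, and these 2 genes also share sequence. Retnlb and Ang4 had 0.57, and 0.75 without SOX21CKO 5. Between these pairs the values over 10 libraries were lower or negative, such as -0.28 for Reg3b with Saa1, -0.20 for Reg3b with Ang4 and -0.57 for Ang4 with Saa2. The sign between the Reg3 and Saa genes depended on the libraries kept. Reg3b with Saa1 had 0.16 without SOX21CKO 5 and -0.57 without SOX21flox 1 and 4. Ang4 with Saa2 had -0.73 and -0.52 in these 2 settings. Saa1 with Lypd8 had 0.70 over 10 libraries and 0.43 without SOX21flox 1 and 4. These values describe libraries that share preparation, depth and cell makeup, and carry no test.

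**Figure D4:**
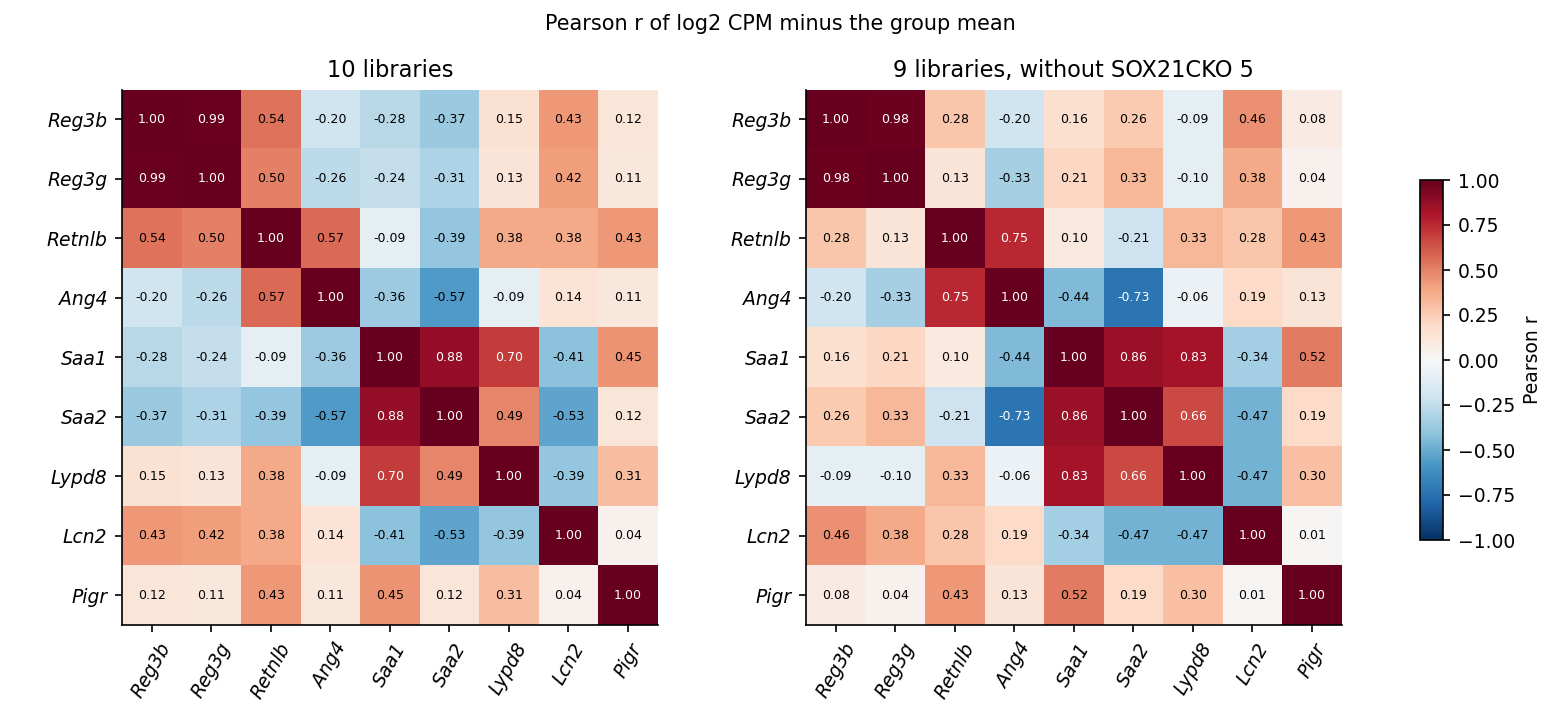
Pearson r between members of log2 CPM minus the group mean, over all 10 libraries at the left and over 9 libraries without SOX21CKO 5 at the right. Reg3b with Reg3g (0.99 and 0.98) and Saa1 with Saa2 (0.88 and 0.86) keep high values, while Reg3b with Retnlb is 0.54 in the first and 0.28 in the second.

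Among 9678 other genes with a mean of at least 5 CPM, the 5 whose group-centred levels were most like the mean of Reg3b and Reg3g were Plet1 at an r of 0.97, Nags at 0.96, and Hoxb6, Amn and Hoxb8 at 0.95 each. Most of this likeness rested on SOX21CKO 5, since without it Plet1 had 0.75, Nags 0.63, Amn 0.47, Hoxb6 0.43 and Hoxb8 0.42. Most like the mean of Saa1 and Saa2 were Hist2h2aa1 and Cops4 at 0.94, Tmem37 at 0.93, and Xrcc4 and Prdx6 at 0.92. Without SOX21CKO 5 each stayed between 0.91 and 0.97. Leaving out SOX21flox 1 and 4 gave 0.92 for Hist2h2aa1, 0.87 for Cops4, 0.86 for Xrcc4, 0.85 for Tmem37 and 0.81 for Prdx6. Most like the mean of Retnlb and Ang4 were Gsdmc2, Capn9, Ifi44 and Irf9 at 0.89 and Gars at 0.88. Gsdmc2 is a gasdermin, a family of pore-forming proteins, and Ifi44 and Irf9 belong to the interferon response. Parp6 and Chmp7 at 0.97 were most like Lypd8, Lime1 at 0.93 most like Lcn2, and Supt6 at 0.92 most like Pigr. Without SOX21flox 1 and 4, Parp6 and Chmp7 had 0.98, Lime1 0.87 and Supt6 0.76. Lcn2 had only 134 reads in all, so its likeness may be mostly count noise. All of these genes were picked for the highest r among many, so high values arise in part by the picking.

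Of the close relatives of the 9, Reg4, Ang, Retnla and Saa3 passed the filter on low counts. Reg4, a lectin gene of deep secretory cells in the colon, averaged 891 ± 574 CPM in SOX21CKO and 1691 ± 661 CPM in SOX21flox, a log2 fold change of -0.92 ± 0.49 (SE). Ang, another angiogenin ribonuclease, was at 17.9 ± 4.83 CPM in SOX21CKO and 28.7 ± 8.18 CPM in SOX21flox, or -0.68 ± 0.22, and -0.42 without SOX21flox 1 and 4. Saa3, the serum amyloid A gene of macrophages and epithelium, was at 20 ± 13.8 CPM in SOX21CKO and 24.6 ± 21.2 CPM in SOX21flox, or -0.29 ± 0.58 with overlapping groups, and 0.45 without SOX21flox 1 and 4. Retnla was at 0.754 ± 0.431 CPM in SOX21CKO and 1.12 ± 0.902 CPM in SOX21flox, a log2 fold change of -0.50, or 0.27 without SOX21flox 1 and 4. None of the 4 was called by edgeR or DESeq2. Reg1, Reg2, Reg3a, Saa4, Ang2, Retn and Retnlg had between 1 and 38 reads over the 10 libraries. Coding identity to Ang4 was 84.8% for Ang and 87.4% for Ang2, and 4.7% of the 50-base windows of Ang4 occurred in another gene's transcript, mainly that of Ang5.

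A list of 34 other defence effectors held 27 tested genes, of which 21 were lower and 6 higher in SOX21CKO, with a median log2 fold change of -0.37, where all tested genes split into 7471 lower and 7492 higher with a median of 0.00. Zg16, Tff3 and Fcgbp of this list are also among the goblet cell markers, so these lists are not separate. EdgeR and DESeq2 called none of the 27, and 7 lower and 1 higher had an unadjusted p under 0.05, against 7.91% lower and 5.05% higher of all tested genes. Without SOX21flox 1 and 4, 18 were lower and 9 higher with a median of -0.13. With library totals only the list median was 0.12, where the median of all tested genes was 0.36. The smallest p-values were those of Itln1, Chil3, Fut2 and Tff3. Itln1, a lectin that binds microbial sugars, averaged 68.4 ± 29.4 CPM in SOX21CKO and 133 ± 52.9 CPM in SOX21flox, and Tff3, the trefoil peptide of goblet cells, averaged 248 ± 50.7 CPM in SOX21CKO and 454 ± 257 CPM in SOX21flox, where SOX21flox 2, 3 and 5 averaged 280 ± 62.5 CPM. Fut2, which adds fucose to surface glycans, was at 226 ± 46.6 CPM in SOX21CKO and 309 ± 52.1 CPM in SOX21flox. Chil3, a chitinase-like protein of macrophages, was the gene in the other direction, with 4.02 ± 3.15 CPM in SOX21CKO and 0.802 ± 0.841 CPM in SOX21flox. Macrophage markers summed to 10.1 to 45.4 CPM in SOX21CKO and 8.09 to 37.3 CPM in SOX21flox, with 4 of 6 higher in SOX21CKO, and all 6 without SOX21flox 1 and 4. Itln1 made up most of the Paneth cell list, at 37.4 to 103 CPM summed in SOX21CKO and 83.5 to 215 CPM in SOX21flox.

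Among 33 tested genes of Toll-like receptor and NF-kB signalling, 12 were higher and 21 lower, with a median of -0.03. EdgeR called none and DESeq2 called 1, Tnf, the gene of the cytokine TNF, which averaged 0.474 ± 0.232 CPM in SOX21CKO and 1.28 ± 0.373 CPM in SOX21flox, a log2 fold change of -1.40 ± 0.37 (SE). DESeq2 did not call Tnf once SOX21flox 1 and 4 were left out. Nfkbia, the NF-kB inhibitor that NF-kB itself induces, had 34.9, 34.5, 34.8, 34.9 and 33.4 CPM in SOX21CKO 1 to 5, against 58.3, 37.8, 37.1, 56.7 and 40.9 CPM in SOX21flox 1 to 5. The groups did not overlap, and the highest values were those of SOX21flox 1 and 4, without which the log2 fold change was -0.15 in place of -0.42. Rela, a subunit of NF-kB, was at 43.0 ± 4.41 CPM in SOX21CKO and 53.6 ± 5.74 CPM in SOX21flox. The chemokine Cxcl5 was higher, at 1.19 ± 0.899 CPM in SOX21CKO and 0.214 ± 0.213 CPM in SOX21flox.

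Among 21 tested genes of IL-22 and STAT3 signalling, 9 were higher and 12 lower, the median was -0.03, and neither edgeR nor DESeq2 called any. Without SOX21flox 1 and 4 the split was 4 higher and 17 lower, with a median of -0.11. Stat3 was at 101 ± 8.15 CPM in SOX21CKO and 113 ± 13.6 CPM in SOX21flox. Il22ra1, the epithelial chain of the IL-22 receptor, was at 15.6 ± 6.03 CPM in SOX21CKO and 10.1 ± 4.91 CPM in SOX21flox (13.0 ± 2.93 CPM without SOX21flox 1 and 4), with overlap. The 4 with the smallest p-values were Lifr, Il17rc, Il17ra and Socs3. Socs3, a feedback inhibitor that Stat3 induces, averaged 8.40 ± 1.03 CPM in SOX21CKO and 12.6 ± 6.17 CPM in SOX21flox, and DESeq2 called it without SOX21flox 1 and 4, where the log2 fold change was -0.91 in place of -0.59. Il17rc, a chain of the IL-17 receptor, was at 130 ± 30.8 CPM in SOX21CKO and 207 ± 68.2 CPM in SOX21flox (159 ± 21.6 CPM without SOX21flox 1 and 4), while its partner Il17ra was at 13.7 ± 1.45 CPM in SOX21CKO and 10.9 ± 1.94 CPM in SOX21flox (12.3 ± 0.737 CPM without them). Lifr was at 2.99 ± 3.11 CPM in SOX21CKO and 0.470 ± 0.296 CPM in SOX21flox, with 6.47 CPM in SOX21CKO 3 and 6.26 CPM in SOX21CKO 5.

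Of 6 tested genes of type 2 cytokine signalling, 3 were higher and 3 lower, with a median of -0.16, and 2 were higher and 4 lower with a median of -0.31 without SOX21flox 1 and 4. EdgeR and DESeq2 called none with all libraries. Clca1, a secreted goblet cell protein that type 2 cytokines induce, averaged 5006 ± 2698 CPM in SOX21CKO and 8932 ± 4544 CPM in SOX21flox, and is also one of the goblet cell markers. The other lower genes were Il4ra, at a log2 fold change of -0.46, and Il17rb at -0.39 (-0.63 without SOX21flox 1 and 4). Those higher were Il33 at 0.66, Il13ra1 at 0.33 (0.02 without SOX21flox 1 and 4) and Stat6 at 0.07 (-0.11 without them). The cytokine gene Il13 had 1 read in all 10 libraries together.

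**Figure D5:**
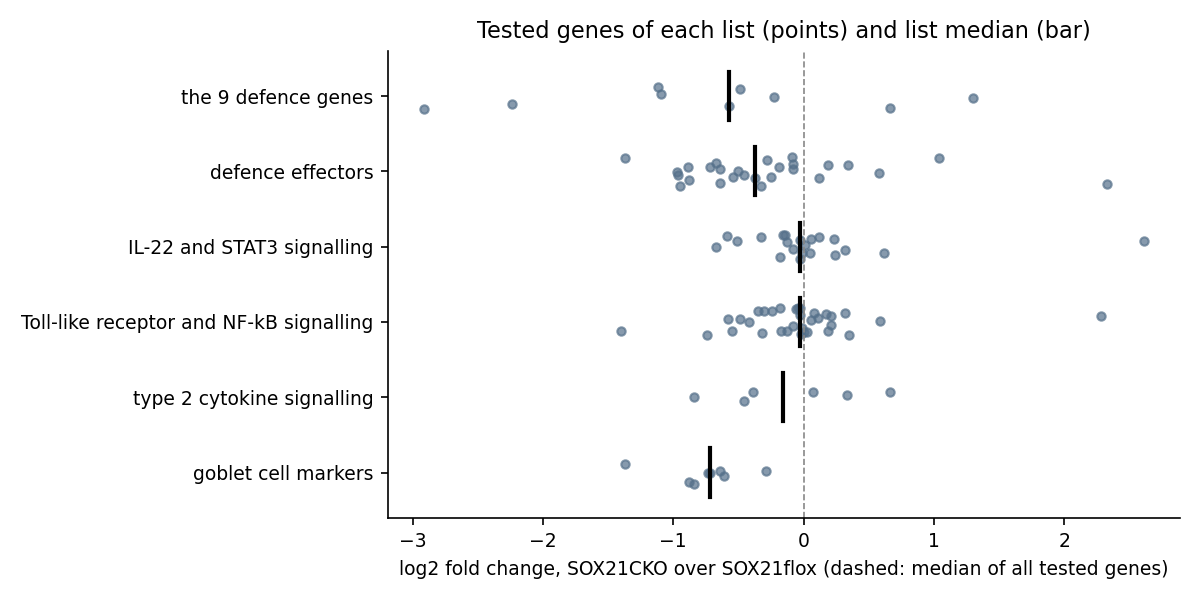
Log2 fold change, SOX21CKO over SOX21flox, of each tested gene (points) in the 9 defence genes, the other defence effectors, 3 signalling lists and the goblet cell markers, with the list median as a bar and the median of all tested genes as a dashed line. The median of the defence effectors is -0.37, that of the goblet cell markers is -0.72, and those of the IL-22 and STAT3 list and of the Toll-like receptor and NF-kB list are both -0.03. Zg16, Tff3 and Fcgbp are points of both the defence effectors and the goblet cell markers, and Clca1 of both the type 2 list and the goblet cell markers.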

How the data were processed

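RNA of mouse colon crypts was measured in 5 SOX21CKO and 5 SOX21flox libraries, grouped and numbered by the sample titles. Libraries came from total RNA and an Illumina TruSeq kit with mRNA enrichment, per the labels' protocols. The submitters' processing notes name fastp and HISAT2 without versions. Genome build, annotation, counter, strand setting and read length are not given in the labels or headers. The authors deposited whole-number counts per Ensembl gene ID, not normalized, and a table of FPKM, which the authors scaled by gene length and library total. Counts without molecular identifiers count reads and not molecules.

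Of the 33632 gene IDs, 26095 matched a symbol of GENCODE M21 (GRCm38), used for names and coding sequences. Counts of 14963 genes left by filterByExpr were normalized by trimmed mean of M values and compared with edgeR 4.0.16 in R 4.3.3 (robust quasi-likelihood test, group as the only term, Benjamini-Hochberg over all genes, threshold 0.05), after the procedure was tested on simulated data. Log2 fold changes are SOX21CKO over SOX21flox, the SE is the size of the fold change over the root of F, and intervals are at 95%. CPM use the scaled library sizes. Group-centred levels are log2 CPM with a prior count of 2.

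The 9 genes and all lists were chosen with earlier results of these data known, and no set test was run. Text names the 9 genes and their close relatives, up to 4 genes per list with the smallest p, the most abundant or lowest markers, and the 5 genes most like each pair. Stat3, Il22ra1, Igha, Ccl28, Il13, and Clca1 with the other tested genes of the type 2 list were named after their values were seen, as was Tnf's call. Of 199 list entries 181 matched; Reg3d, Ang5, Ang6, Lypd8l, Il22, Il4 and Camp are among those not analysed here. Upstream sequences come from the RefSeq promoters (GRCm38.p6), where 8 of the 9 genes matched and Retnlb did not. Antisense and overlapping genes may share reads, since the use of strand is not stated. Alternatives were other scalings, mitochondrial genes left out or their share as a covariate, DESeq2 1.42.0, limma 3.58.1 (voom, voom with quality weights, and FPKM on a log2 scale with a pseudocount of 1 or 0.1), other filters, a replicate block, each library left out, and SOX21flox 1 and 4 left out together. DESeq2 without those 2 libraries was chosen after seeing the data.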

Additional observations from a re-analysis of the deposited data

Results flagged for a closer look

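SOX21CKO 5 stood far below the other libraries of its group for both Reg3 lectins on the log2 scale. Reg3b was at 0.708 CPM there, where the other 4 SOX21CKO libraries had 23.1 to 52.3 CPM, and the gap to the nearest was 0.81 of the whole range. Reg3g was at 0.425 CPM, where the other 4 had 8.27 to 17.2 CPM, a gap of 0.79 of the range. Without SOX21CKO 5 the log2 fold changes were -2.59 for Reg3b and -1.93 for Reg3g. Lypd8 was at 10628 CPM in SOX21CKO 4 and at 6805 to 7676 CPM in the other 4. The summed level of the IgA transport list was 72.6 CPM in SOX21CKO 4 and 110 to 122 CPM in the other 4 libraries of the group. A library was taken as far from its group when its gap passed Dixon's limit of 0.71 for 5 samples. Of 36 groups examined in this way chance alone flags about 1 in 20, and Reg3b and Reg3g are not independent, with an r of 0.99 between them.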

How the results depend on the processing

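EdgeR called 0 genes at the threshold, 0 of the 9 members and 0 of the genes of the defence and signalling lists. Over all genes the count was 170 with DESeq2, 44 with limma voom and quality weights, 3 without a filter, 1 with the mitochondrial share as a covariate, 0 to 2 with 1 library left out (2 without SOX21flox 2) and 71 with DESeq2 without SOX21flox 1 and 4. Over the members it was 3 with DESeq2, 2 with DESeq2 without SOX21flox 1 and 4, and 0 to 0 with 1 library left out. Over the list genes it was 1 with DESeq2 (Tnf), 1 with DESeq2 without SOX21flox 1 and 4 (Socs3), and 0 to 0 with 1 library left out. The cause of these differences was not tested. The sign of the log2 fold change was the same in 25 of 25 settings for Reg3b, Reg3g, Retnlb, Ang4, Saa1, Saa2 and Pigr. Lypd8 turned to 0.21 with library totals only, 0.26 on log2(FPKM + 1), 0.26 on log2(FPKM + 0.1), 0.12 with the mitochondrial share as a covariate, 0.06 without SOX21flox 1 and 4 and 0.05 with DESeq2 without them, and Lcn2 turned to 0.10 on log2(FPKM + 0.1). Library totals moved the median of all genes by 0.36, log2(FPKM + 1) by 0.30 and log2(FPKM + 0.1) by 0.41. Lcn2 has no value under the stricter filter of at least 1 CPM in 5 libraries. With 1 library left out, the range was -3.28 to -2.59 for Reg3b, -2.64 to -1.93 for Reg3g, -1.28 to -0.95 for Retnlb, -1.33 to -0.84 for Ang4, 0.47 to 0.92 for Saa1, 1.10 to 1.55 for Saa2, -0.37 to -0.05 for Lypd8, -0.84 to -0.29 for Lcn2 and -0.56 to -0.36 for Pigr. The labels do not say that replicate numbers pair the groups, and same-numbered libraries had correlations of their deviations of -0.35, 0.32, 0.12, 0.47 and -0.06 for numbers 1 to 5. A fit with the replicate number as a block called 0 genes and 0 members, with 1986 genes at an unadjusted p under 0.05. Depth limited Lcn2, with 134 reads in all, and the low values of SOX21CKO 5 for Reg3b and Reg3g, with 20 and 12 reads.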
